A study of Mus musculus with 6 samples.

Results

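The aminoacyl-tRNA synthetases of the cytosol, their scaffold proteins and a set of Atf4-linked amino acid genes were followed in bone marrow multipotent progenitors of wild-type and latexin-deficient mice. The members were listed by gene symbol: 20 synthetase genes, 3 scaffold genes and 13 amino acid response genes, 36 in all. Of these, 34 had an array feature of their own among 23410 tested features, namely 18 synthetases, all 3 scaffolds and all 13 response genes. Dars was not matched to a feature, and Aars shared its feature with Exosc6, so neither was analysed here. Iars had 2 features and is given by the brighter one, while Mars stands on the platform as Mars1.

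Synthetases charge each tRNA with its amino acid, and several of them are held together in a multisynthetase complex by the scaffolds Aimp1, Aimp2 and Eef1e1. When uncharged tRNA accumulates or protein folding is disturbed, kinases phosphorylate the initiation factor eIF2, general translation slows, and the transcription factor Atf4 is translated more. Atf4 then drives genes of amino acid synthesis and transport, many synthetase genes, and regulators such as Ddit3 and Trib3. Blood stem cells are known for a low and closely controlled rate of protein synthesis.

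The wild-type group held 3 arrays and the group labelled Lxn-/- held 3, the latter from mice with exons 2 to 4 of latexin (Lxn), a carboxypeptidase inhibitor gene, deleted. All mice had the C57BL/6 background, were 8 to 12 weeks old and are labelled female. Each array carried RNA of about 100000 sorted Lin-, Sca1+, c-Kit+, CD34+ cells, also positive for a receptor written as Flt2, pooled from 10 to 20 mice. Values are RMA log2 expression values. A change is the mean of the arrays labelled Lxn-/- minus the wild-type mean, given with the SE (standard error) that limma estimated. Precision is limited by the number of arrays, 6 in all.

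The labels and the arrays did not fully match. The gate genes Kit, Flt3 and Cd34 read 11.48 or more on every array, Ly6a was not analysed here, and the 6 measured B and T cell genes ranged from 5.68 (Ms4a1) to 8.62 (Cd4). The median of the 4 measured genes of the gate list, these 3 and Ptprc, was not even across arrays. Relative to wild type it lay at -0.18, 0.07 and 0.01 on arrays 1, 2 and 3 labelled Lxn-/-. Their summed log2 level ran from 49.0 to 49.1 in wild type and from 47.9 to 49.4 in the arrays labelled Lxn-/-. Levels of different features are not compared. Lxn did not separate the groups (change -0.22, SE 0.15, limma adjusted p 0.459). Arrays 1 and 3 labelled Lxn-/- had Xist at 6.86 and 5.85 and the Y-linked gene Eif2s3y at 8.57 and 9.36, while the other 4 arrays had Xist at 13.13 or more and Eif2s3y at 3.97 or less. Many results are therefore also given without array 1, and some with array 2 as the only array labelled Lxn-/-.

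Bases upstream of 4 members are printed because these stretches hold the core letters of the element through which Atf4 and its partners of the C/EBP family act, TGATGNAA, read on either strand. They come from RefSeq on GRCm38.p6, run 5′ to 3′ on the gene's strand up to the base before its start, and have each match in capitals. The 250 bases lie at chr6:7693210-7693459 (minus strand) for Asns, at chr2:119350992-119351241 (plus) for Chac1, at chr3:50443614-50443863 (minus) for Slc7a11 and at chr15:11399659-11399908 (minus) for Tars.
Asns: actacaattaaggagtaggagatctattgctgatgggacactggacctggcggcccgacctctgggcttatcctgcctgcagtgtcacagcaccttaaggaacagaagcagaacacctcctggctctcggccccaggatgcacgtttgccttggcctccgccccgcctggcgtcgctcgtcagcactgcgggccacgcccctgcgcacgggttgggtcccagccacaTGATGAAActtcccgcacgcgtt
Chac1: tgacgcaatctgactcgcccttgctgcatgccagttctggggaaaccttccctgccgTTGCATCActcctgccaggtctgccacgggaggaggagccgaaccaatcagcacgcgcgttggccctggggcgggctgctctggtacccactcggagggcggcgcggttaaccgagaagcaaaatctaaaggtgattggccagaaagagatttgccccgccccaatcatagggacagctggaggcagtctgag
Slc7a11: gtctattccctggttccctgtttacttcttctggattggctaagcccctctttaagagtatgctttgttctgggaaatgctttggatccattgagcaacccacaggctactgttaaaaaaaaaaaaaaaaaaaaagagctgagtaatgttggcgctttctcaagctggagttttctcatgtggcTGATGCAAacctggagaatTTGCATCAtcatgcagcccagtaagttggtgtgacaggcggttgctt
Tars: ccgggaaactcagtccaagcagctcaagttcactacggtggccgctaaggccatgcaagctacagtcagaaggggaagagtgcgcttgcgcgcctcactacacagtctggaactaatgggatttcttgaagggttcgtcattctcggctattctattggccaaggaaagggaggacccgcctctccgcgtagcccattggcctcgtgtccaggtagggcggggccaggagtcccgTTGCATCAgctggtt

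The match began 23 bases before the start in Asns, 193 in Chac1 and 15 in Tars, and Slc7a11 had 2 matches on opposite strands, 66 and 47 bases before it. Windows of 300 bases, 250 before and 50 after the start, were searched for 28 of the 36 members. TGATGNAA was found in 5 of 13 synthetases (Iars, Aars, Gars, Tars and Yars), in 0 of 3 scaffolds and in 4 of 12 response genes (Trib3, Asns, Chac1 and Slc7a11). Over all 27025 genes with such a window the share was 4.51%. A second set of letters, CACGTG, the E-box bound by Myc and its relatives, was found in 4 of 13 synthetases (Iars, Aars, Farsb and Tars), in 0 of 3 scaffolds and in 0 of 12 response genes, against 8.09% of all genes. A match is only a match of letters. Lars, Rars, Cars, Hars, Nars, Vars, Wars and Slc7a5 were not searched.

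The synthetases were higher on average in the arrays labelled Lxn-/-, by small amounts. Of 18 measured synthetases 17 had a higher mean, with a median log2 change of 0.18 and a range from -0.03 to 0.30. The 3 scaffolds were all higher, at 0.15 to 0.35. The 13 response genes were mixed: 9 had a higher mean and 4 a lower one, with a median of 0.16 and a range from -0.18 to 0.29. In limma no member reached an adjusted p under 0.05, and neither did any other tested feature (0%). Among synthetases and scaffolds the lowest adjusted p in limma was 0.340, and among response genes 0.364. At an unadjusted p under 0.05, 5 members were higher and 0 lower, while 5.06% of all tested features were higher and 9.23% lower at that limit.

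**Figure D1:**
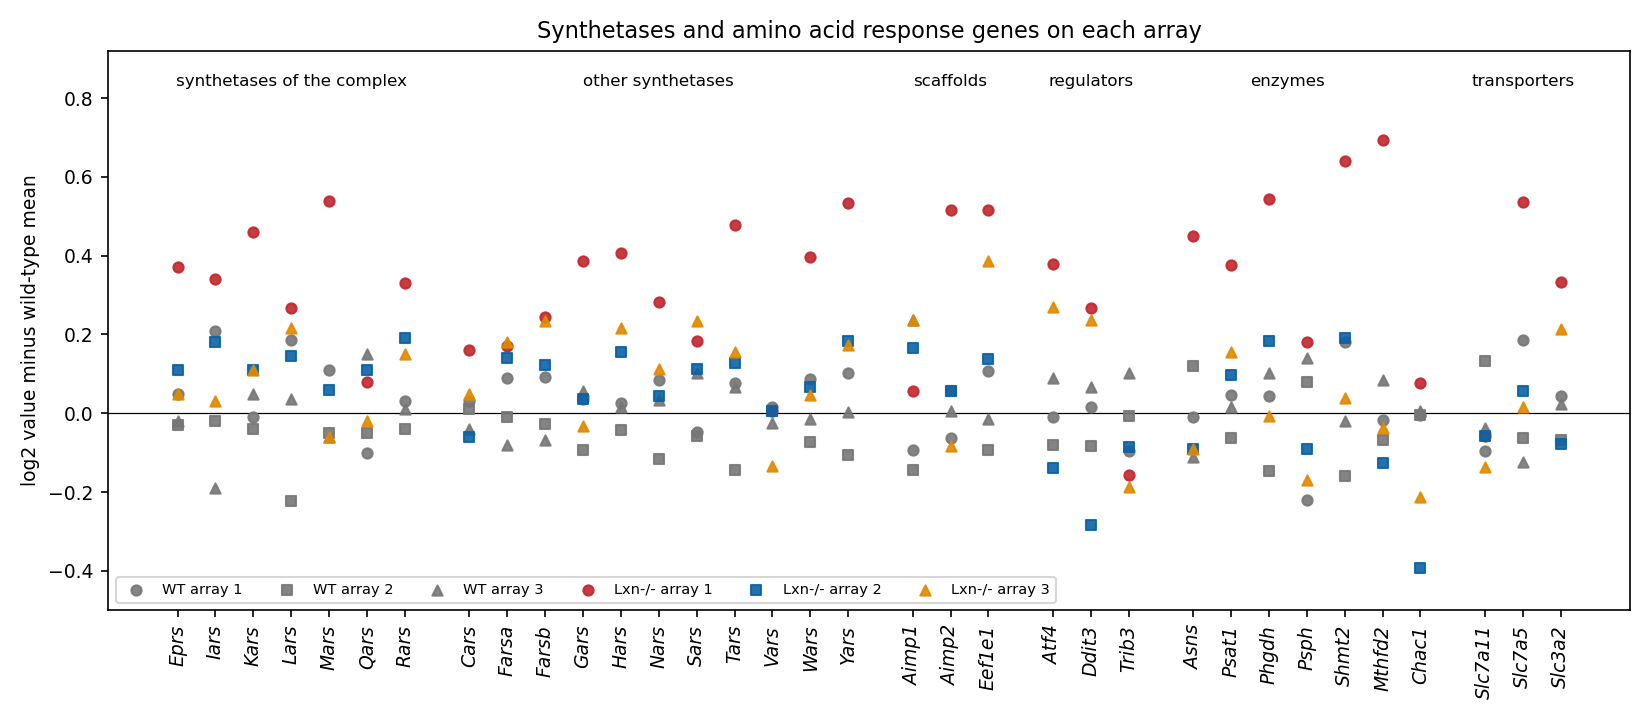
The log2 value of each of the 34 measured members minus its wild-type mean (y axis) is shown on each array, with genes grouped by role; gray points are wild-type arrays and coloured points the arrays labelled Lxn-/-. Array 1 labelled Lxn-/- (red) is the highest of the 6 for 27 of the 34 genes.

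These counts need the level of the members beside them. Across all tested features the direction of the change followed the mean level. The median change was -0.14 in the second decile of mean level and 0.09 in the ninth. Of all features 42.2% had a higher mean in the arrays labelled Lxn-/-, but of the 11705 features above the median level 69.3% did, with a median change of 0.07. Of the 34 members 32 lie in that brighter part, Trib3 and Slc7a11 being the exceptions. The share of features with a higher mean was larger still at the top, 76.5% in decile 9 of mean level and 79.1% in decile 10. Deciles 9 and 10 hold 15 and 8 of the 34 members, so 69.3% is a low comparison for those members. Among all features above the median level 8.37% were higher at an unadjusted p under 0.05 in limma.

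**Figure D2:**
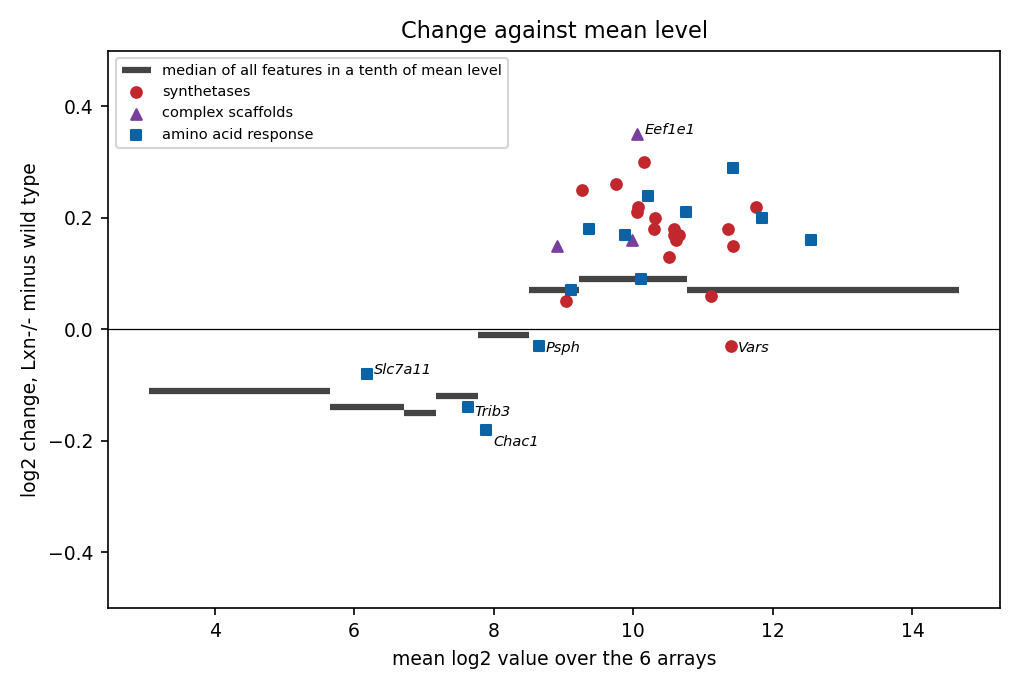
Log2 change (y axis) against mean log2 value over the 6 arrays (x axis) for the 34 measured members, with bars for the median change of all features in each decile of mean level. The 5 members with negative changes are Slc7a11, Trib3, Chac1, Psph and Vars, from -0.18 to -0.03.

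Array 1 labelled Lxn-/- stood highest. The median synthetase lay 0.33 above its wild-type mean on array 1, and 0.11 above it on array 2 and on array 3. The wild-type arrays themselves lay at 0.07, -0.05 and 0.01. On array 1, 16 of 18 synthetases were above all 3 wild-type values, on array 2 there were 9 and on array 3 there were 11. Of the 11705 features above the median level, 4281, 5470 and 5571 were above all 3 wild-type values on these arrays. For comparison, the median feature above the median level lay 0.03, 0.08 and 0.08 above wild type on arrays 1, 2 and 3. After quantile normalization, which gives all arrays the same spread of values, the synthetase median was 0.23 on array 1, 0.03 on array 2 and 0.02 on array 3. The median change was then 0.09, with 15 of 18 synthetases higher, where 47.1% of all features were higher. The median change of all features was then -0.01 in the second decile of mean level and 0.00 in the ninth.

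The response genes differed from the synthetases on arrays 2 and 3. Their median lay 0.38 above wild type on array 1, but relative to wild type it was -0.09 on array 2 and -0.01 on array 3. On array 1, 11 of 13 were above all 3 wild-type values, against 3 on array 2 and 4 on array 3. Without array 1 the median change of the response genes was -0.02 with 6 of 13 higher, and that of the synthetases was 0.11 with 16 of 18 higher. With array 2 as the only array labelled Lxn-/-, 4 of 13 response genes (median -0.09) and 17 of 18 synthetases (median 0.11) were higher. Among the 11705 features above the median level, 8848 were higher without array 1 (median 0.09) and 8762 with array 2 alone (median 0.08). The synthetase medians of 0.11 lay near these values. The difference between the 2 lists was not tested.

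**Figure D3:**
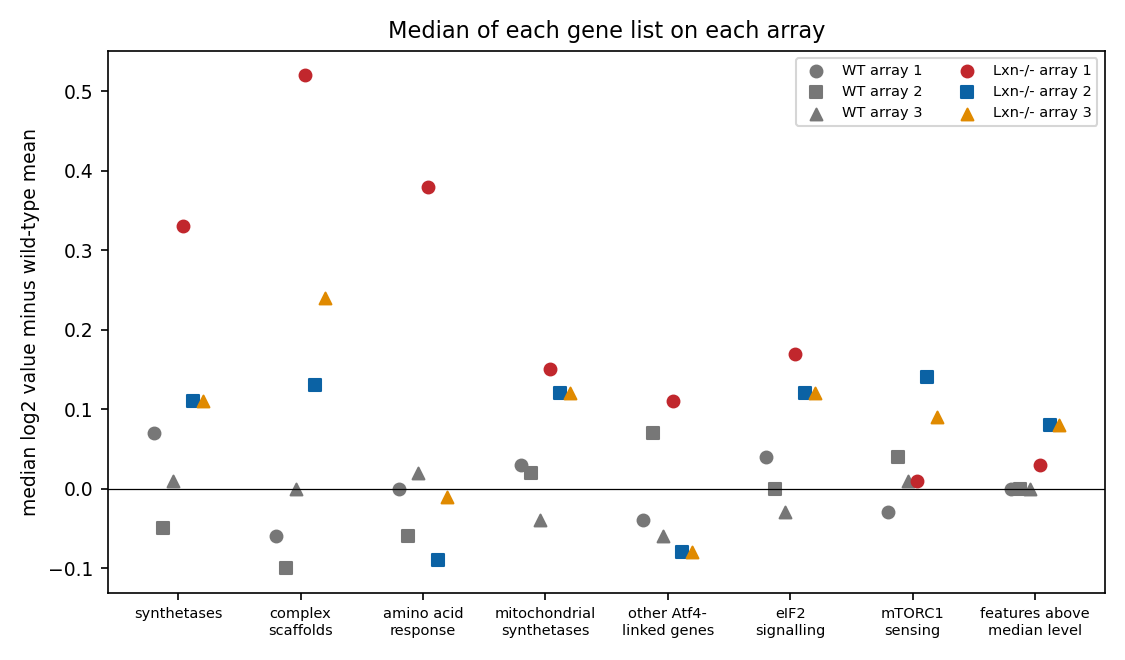
The median log2 value of each gene list minus the wild-type mean (y axis) on each of the 6 arrays, with all features above the median level at the right. Synthetases lie at 0.33, 0.11 and 0.11 on arrays 1, 2 and 3 labelled Lxn-/-, and amino acid response genes at 0.38, -0.09 and -0.01.

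The groups did not overlap for 10 members, all higher in the arrays labelled Lxn-/-: Kars, Rars, Farsa, Farsb, Hars, Sars, Tars, Yars, Eef1e1 and Psat1. Over all tested features the groups stood apart in this direction for 8.54% and in the other for 13%, and above the median level for 15.8% in this direction. After quantile normalization 2 of the 34 members, Rars and Hars, had groups apart as higher, which is near the share of 5.81% over all features. Vars then stood apart as lower, as did 1638 of all 23410 tested features.

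Among synthetases of the multisynthetase complex, Rars, which charges arginine tRNA, had the lowest p. Rars read 11.68, 11.61 and 11.66 in wild type and 11.98, 11.84 and 11.80 on arrays 1, 2 and 3 labelled Lxn-/-. All 3 of the latter lay above wild type, with a change of 0.22 (SE 0.09), an unadjusted p of 0.0318 and an adjusted p of 0.340 in limma. The change of Rars was 0.17 without array 1 and 0.19 with array 2 alone. Kars (lysine) was also at 0.22 with all arrays (SE 0.11). Its array 1 value of 10.42 stood off from 10.07 on both other arrays labelled Lxn-/- and from 9.92 to 10.01 in wild type, and without array 1 the change was 0.11.

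Eprs, the fused enzyme for glutamate and proline, had a change of 0.17 (SE 0.10), or 0.08 without array 1. Lars (leucine) was at 0.21 (SE 0.12), or 0.18 without it. Iars (isoleucine) was at 0.18 (SE 0.13) on the feature used and at 0.16 (SE 0.12) on its other feature, and the former became 0.11 without array 1. Mars, which charges both initiator and elongator methionine tRNA, was at 0.18 (SE 0.15) with all of it from array 1: without that array the change was 0.00. Qars (glutamine) was at 0.06 (SE 0.10) and turned to -0.03 after quantile normalization. The 7 measured enzymes of the complex thus had a median change of 0.18, next to 0.17 for the 11 outside it.

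Outside the complex, Hars, Yars and Farsb had an unadjusted p under 0.05. Hars (histidine) read 9.65, 9.58 and 9.64 in wild type and 10.03, 9.78 and 9.84 in the arrays labelled Lxn-/-, a change of 0.26 (SE 0.09) with an unadjusted p of 0.0222 and an adjusted p of 0.340 in limma. Its lowest array labelled Lxn-/- was still above the highest wild-type array, also after quantile normalization (change 0.18). The change of Hars was 0.19 without array 1 and 0.16 with array 2 alone.

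Yars (tyrosine) had the largest change of any measured cytosolic synthetase, 0.30 (SE 0.12, unadjusted p 0.0334, adjusted p 0.340 in limma). It read 10.11, 9.90 and 10.01 in wild type and 10.54, 10.19 and 10.18 in the arrays labelled Lxn-/-. The groups were apart, but array 1 was set off from arrays 2 and 3 labelled Lxn-/-. Without array 1 the change was 0.18, and with array 2 alone it was also 0.18.

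Farsa and Farsb encode the alpha and beta subunits of 1 enzyme, the phenylalanine synthetase. Farsb read 10.31, 10.19 and 10.15 in wild type and 10.46, 10.34 and 10.45 in the arrays labelled Lxn-/- (change 0.20, SE 0.09, unadjusted p 0.0483, adjusted p 0.347 in limma). Farsa had a change of 0.16 (SE 0.09), with 10.70, 10.67 and 10.71 against 10.62, 10.52 and 10.45. Both subunits were apart between groups, and neither rested on array 1: without it the changes were 0.18 (Farsb) and 0.16 (Farsa). With array 2 alone they were 0.13 (Farsb) and 0.14 (Farsa).

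Tars (threonine, change 0.25, SE 0.12) and Sars (serine, 0.18, SE 0.09) also had groups apart. Tars read 9.21, 8.99 and 9.20 in wild type and 9.61, 9.26 and 9.29 in the arrays labelled Lxn-/-, and its change was 0.14 without array 1. Sars read 10.45, 10.44 and 10.60 against 10.68, 10.61 and 10.73, and stayed at 0.17 without array 1. Gars (glycine, 0.13), Nars (asparagine, 0.15) and Wars (tryptophan, 0.17) were higher on average with overlapping groups. Without array 1, Gars was at 0.00, Nars at 0.08 and Wars at 0.06. Cars (cysteine) was at 0.05 (SE 0.09) and turned to -0.02 after quantile normalization. Vars (valine) was the synthetase with a lower mean, at -0.03 (SE 0.09), and it turned to 0.02 when arrays were centred on their medians. Its 11.28 on array 3 labelled Lxn-/- lay below the other 5 values of 11.39 to 11.43.

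**Figure D4:**
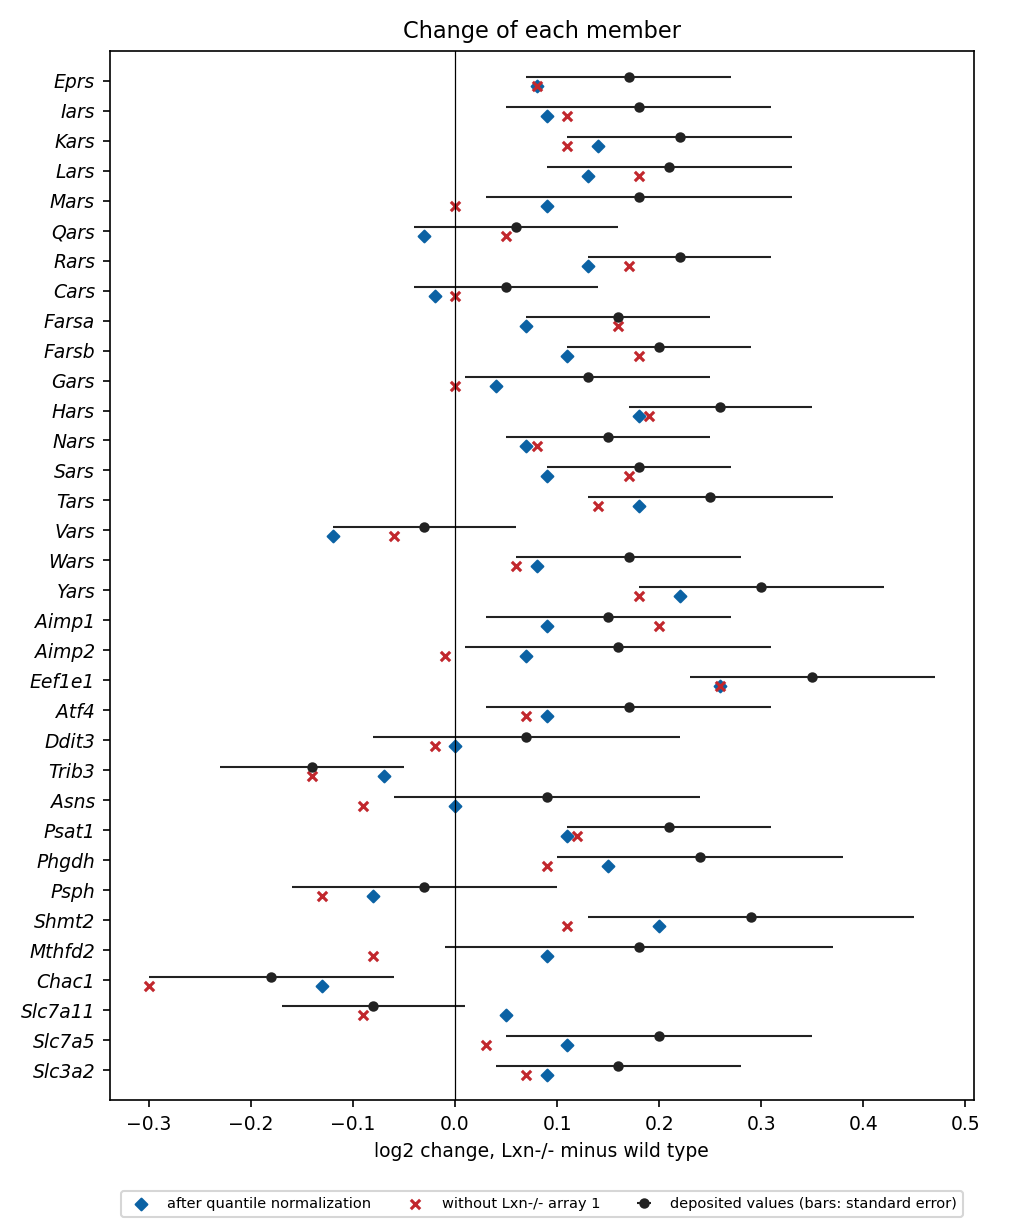
The log2 change of each of the 34 measured members (x axis) from the deposited values, with bars for the standard error, beside the change after quantile normalization (diamonds) and without array 1 labelled Lxn-/- (crosses). For Yars these are 0.30, 0.22 and 0.18, and for Asns 0.09, 0.00 and -0.09.

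The scaffolds showed the largest change of all members in Eef1e1, also known as Aimp3. It read 9.99, 9.79 and 9.87 in wild type and 10.40, 10.02 and 10.27 in the arrays labelled Lxn-/-, a change of 0.35 (SE 0.12, unadjusted p 0.0155, adjusted p 0.340 in limma). Array 2 lay just above the highest wild-type value and arrays 1 and 3 well above it, and with array 2 alone the change was 0.13.

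Aimp2 read 9.83, 9.95 and 9.90 in wild type and 10.41, 9.95 and 9.81 in the arrays labelled Lxn-/-. Its change of 0.16 (SE 0.15) came from array 1 and was -0.01 without it. Aimp1, the scaffold that is also cleaved to a secreted cytokine, read 8.73, 8.68 and 9.06 in wild type and 8.88, 8.99 and 9.06 in the arrays labelled Lxn-/- (change 0.15, SE 0.12). For Aimp1 array 3 of both groups read 9.06, so the groups overlapped.

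Among the regulators, Atf4 and Ddit3 split the arrays labelled Lxn-/-. Atf4 read 9.78, 9.71 and 9.88 in wild type and 10.17, 9.65 and 10.06 on arrays 1, 2 and 3 labelled Lxn-/-. Arrays 1 and 3 were thus above all wild-type values and array 2 below them, and the change of 0.17 (SE 0.14, adjusted p 0.514 in limma) became 0.07 without array 1 and -0.14 with array 2 alone. Since Atf4 is controlled largely at translation, its RNA is an indirect reading of its activity.

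Ddit3, which encodes the stress factor CHOP, had the same order. It read 9.09, 8.99 and 9.14 in wild type and 9.34, 8.79 and 9.31 in the arrays labelled Lxn-/- (change 0.07, SE 0.15). With array 2 alone the change was -0.29, and without array 2 it was 0.25. Arrays 1 and 3 are those with Y-linked signal, and Hspa1a, an inducible heat shock protein gene, was also highest there, at 10.32 and 11.33 against 8.80 on array 2 and at most 8.41 in wild type. Immediate early genes, which respond within minutes to handling and other stimuli, split in the same way. The median of this list lay at 0.36, -0.19 and 0.37 on arrays 1, 2 and 3 against wild type. Higher on average were 5 of 5, and 0 of 5 with array 2 alone, beside 8117 and 8762 of the 11705 features above the median level. After quantile normalization 3 of the 5 immediate early genes were higher, with a median of 0.02. Their summed log2 level ran from 53.4 to 54.7 in wild type and from 53.1 to 56.3 in the arrays labelled Lxn-/-. The part of these genes in the values of Atf4 and Ddit3 was not tested.

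Trib3, a pseudokinase gene induced by Atf4 and CHOP, was not higher on any array labelled Lxn-/- than its wild-type mean. It read 7.60, 7.69 and 7.80 in wild type and 7.54, 7.61 and 7.51 in the arrays labelled Lxn-/-, and the value of array 2 fell inside the wild-type range. Its change of -0.14 (SE 0.09, adjusted p 0.436 in limma) lay next to -0.12, the median of all features in its decile of mean level, and was -0.07 after quantile normalization.

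Chac1, a glutathione-degrading enzyme gene and a sensitive target of the Atf4 pathway, read 7.98, 7.98 and 7.99 in wild type. The arrays labelled Lxn-/- read 8.06, 7.59 and 7.77, so that array 1 was above and arrays 2 and 3 below wild type. The change was -0.18 (SE 0.12, adjusted p 0.460 in limma), and -0.30 without array 1.

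Of the amino acid synthesis genes, Asns, the asparagine synthetase gene and a classic Atf4 target, was high on array 1 only. Asns read 10.05, 10.18 and 9.95 in wild type and 10.51, 9.97 and 9.97 in the arrays labelled Lxn-/-. Its change was 0.09 (SE 0.15, adjusted p 0.763 in limma), -0.09 without array 1 and 0.00 after quantile normalization.

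Phgdh, Psat1 and Psph encode the enzymes that make serine from a glycolytic intermediate, in that order. Psat1 read 10.69, 10.58 and 10.66 in wild type and 11.02, 10.74 and 10.80 in the arrays labelled Lxn-/- (change 0.21, SE 0.10, adjusted p 0.364 in limma), and it was the response gene with groups apart. Without array 1 its change was 0.12. Phgdh read 10.14, 9.95 and 10.20 in wild type and 10.64, 10.28 and 10.09 in the arrays labelled Lxn-/- (0.24, SE 0.14), where array 3 fell inside the wild-type range and the change without array 1 was 0.09. Psph was at -0.03 (SE 0.13). Psph thus lay within its error of 0, and its sign turned when arrays were centred on their medians (0.03).

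Shmt2 and Mthfd2 carry serine's carbon into folate metabolism inside mitochondria. Shmt2 had the largest change of the response genes, 0.29 (SE 0.16), with 11.93 on array 1 against 11.48 and 11.33 on the other arrays labelled Lxn-/- and 11.13 to 11.47 in wild type. Without array 1 it was at 0.11. Mthfd2 had the largest single excess of any member, 9.97 on array 1 against 9.15 and 9.24 on arrays 2 and 3 and 9.21 to 9.36 in wild type. Its change was 0.18 (SE 0.19) with array 1 and -0.08 without it.

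The transporters also divided. Slc7a5 and Slc3a2 together form the LAT1 transporter of large neutral amino acids. Slc7a5 was at 0.20 (SE 0.15), of which 0.03 was left without array 1, whereas Slc3a2 was at 0.16 (SE 0.12) with 12.80 and 12.68 on arrays 1 and 3 and 12.39 on array 2, against 12.40 to 12.51 in wild type. Slc3a2 was at 0.07 without array 1 and at -0.07 with array 2 alone. Slc7a11, the cystine transporter that also pairs with Slc3a2, was dim. It read 6.13, 6.36 and 6.19 in wild type and 6.17, 6.17 and 6.09 in the arrays labelled Lxn-/-, inside the wild-type range but for array 3. Its change of -0.08 (SE 0.09) turned to 0.05 after quantile normalization, and the median of all features at its level was -0.14.

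The changes of members with and without the upstream letters are given as a description, and their difference was not tested. The 8 measured members with TGATGNAA in the window had a median change of 0.11 with 5 higher, from -0.18 in Chac1 to 0.30 in Yars. The 18 measured members with a window and no match had a median of 0.18 with 17 higher. Of the lower members with a window, Trib3, Chac1 and Slc7a11 held the letters and Psph did not. Trib3, Chac1 and Slc7a11 are dim, in deciles 5, 6 and 2 of mean level. In these deciles 23.8%, 48% and 11.1% of all features were higher. All other measured members lie in deciles 7 to 10, where 68% or more were higher. The members with and without the letters thus also differ in level. The 3 measured members with CACGTG had a median change of 0.20 with 3 higher, and the 23 without it one of 0.16 with 19 higher. Among the 4 members whose upstream bases are printed above, Tars was higher at 0.25, while Asns, Chac1 and Slc7a11 were at 0.09, -0.18 and -0.08.

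Mitochondrial synthetases, a separate set of genes that charge tRNAs inside mitochondria, were all higher on average, 16 of 16 measured, with a median change of 0.14. Adjusted p was 0.340 or more in limma, and 4 had an unadjusted p under 0.05. Of all features above the median level 69.3% were higher and 8.37% were higher at that limit, and of all tested features 42.2% and 5.06%. Yars2 was at 0.39 (SE 0.13), Rars2 at 0.32 (SE 0.10), Iars2 at 0.22 (SE 0.09) and Sars2 at 0.21 (SE 0.09). Relative to wild type their median was 0.15, 0.12 and 0.12 on arrays 1, 2 and 3 labelled Lxn-/-. After quantile normalization it was 0.11, 0.04 and 0.05, highest on array 1, and 12 of 16 were higher, with a median change of 0.10. The difference from the cytosolic set was not tested.

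The wider set of genes that Atf4 or its partners are known to induce was mixed. Of 25 measured, 16 were higher and 9 lower, with a median change of 0.03, beside 42.2% higher of all tested features and 69.3% above the median level. Without array 1, 10 were higher (median -0.01), and with array 2 alone 9 were higher (median -0.08). Of all 23410 tested features 10572 and 10735 were higher in these settings. After quantile normalization 12 of the 25 were higher (median -0.00), beside 47.1% of all features. At an unadjusted p under 0.05, 0 of the 25 were higher and 2 lower, where 9.23% of all tested features were lower. Those 2 were Jdp2, a repressor of the AP-1 family (-0.29, SE 0.09), and Slc7a3, a cationic amino acid transporter gene (-0.22, SE 0.09), with adjusted p of 0.340 and 0.343 in limma. The median of all features at the level of Slc7a3 was -0.14. After quantile normalization Slc7a3 was at -0.10 and Jdp2 at -0.34.

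Gpt2, which makes alanine in mitochondria, was at 0.18 (SE 0.09), and at 0.23 with array 2 alone. Cebpb, an Atf4 partner, was at 0.32 (SE 0.18), and at 0.05 with array 2 alone. Atf3 and Ppp1r15a were singled out after their values were seen. Atf3, a stress-induced transcription factor gene that is also an immediate early responder, had the largest change of the set, 0.61 (SE 0.42, adjusted p 0.469 in limma). It read 10.05, 10.63 and 9.93 in wild type and 11.40, 9.66 and 11.38 on arrays 1, 2 and 3 labelled Lxn-/-. Arrays 1 and 3 were thus above all wild-type values and array 2 below them. Without array 2 its change was 1.18 (adjusted p 0.0131 in limma), and with array 2 alone it was -0.55. Without array 2, the label Lxn-/- and the Y-linked signal of arrays 1 and 3 cannot be told apart. With any other single array left out its adjusted p in limma lay between 0.618 and 0.798. Ppp1r15a, whose product brings eIF2 phosphorylation back down, had the same order: relative to wild type it was 0.33, -0.32 and 0.49, with a change of 0.17 (SE 0.19).

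Of 14 measured genes of eIF2 and its kinases and exchange factor, 13 were higher (median 0.12), 3 of them at an unadjusted p under 0.05, beside 69.3% and 8.37% of all features above the median level. After quantile normalization 9 of 14 were higher, with a median of 0.05. These 3 encode subunits of eIF2B, the factor that reloads eIF2 with GTP: Eif2b4 (0.36, SE 0.09, adjusted p 0.340 in limma), Eif2b1 (0.32, SE 0.10) and Eif2b2 (0.19, SE 0.08). Eif2b4 read 8.44, 8.45 and 8.31 in wild type and 8.81, 8.67 and 8.81 in the arrays labelled Lxn-/-. The groups were apart, and with array 2 alone the change was 0.26. The eIF2 subunit gene Eif2s2 was at 0.36 (SE 0.19).

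Genes through which mTORC1 senses amino acids had a median change of 0.06, with 17 of 22 higher and 2 at an unadjusted p under 0.05. These are near the values of all features above the median level, which had a median of 0.07, with 69.3% higher and 8.37% higher at that limit. The Rag GTPase gene Rraga (0.22, SE 0.09) and the lysosomal anchor gene Lamtor1 (0.20, SE 0.09) were those 2. Rheb was at 0.27 (SE 0.13) and Rragb at 0.23 (SE 0.11). After quantile normalization 11 of the 22 were higher and the median was -0.00. Of 5 measured elongation factors 4 were higher, with a median of 0.06. Eif5a was at 0.27 (SE 0.11, unadjusted p 0.0345, adjusted p 0.340 in limma) and Eef1d at 0.15 (SE 0.12), while Eef1b2 was at 0.06 (SE 0.11) and Eef1a1 at 0.02 (SE 0.08). Eef2, the lower one, was at -0.02 (SE 0.08).

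Markers of other cell types differed between arrays, in part with array 1. All 5 measured mast cell and basophil genes had lower means in the arrays labelled Lxn-/-, and the median of the list lay at -1.40 on array 1, -0.37 on array 2 and -0.15 on array 3 against wild type. Their summed log2 level ran from 45.2 to 46.4 in wild type and from 39.9 to 44.9 in the arrays labelled Lxn-/-. Megakaryocyte genes (4 of 4 lower, sums of 32.3 to 33.8 in wild type and 30.7 to 31.8 in the arrays labelled Lxn-/-) were at -0.52, -0.21 and -0.26 on arrays 1, 2 and 3. Long-term stem cell genes (6 of 6 lower, 44.9 to 46.3 and 43.4 to 45.0) were at -0.42, -0.15 and -0.16. Erythroid genes (5 of 5 lower, 38.5 to 41.0 and 37.7 to 38.0) were at -0.33, -0.24 and -0.28, with a median change of -0.27 without array 1. Beside these counts, 13528 of all 23410 tested features had a lower mean, and the median change in the fifth decile of mean level was -0.12. After quantile normalization the median changes were -0.69 (mast cell and basophil), -0.36 (megakaryocyte), -0.19 (long-term stem cell) and -0.20 (erythroid).

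Mature myeloid genes (3 of 6 lower, 53.5 to 55.4 and 52.9 to 56.2) were low on array 1 at -0.29 and high on arrays 2 and 3 at 0.36 and 0.28, and 5 of 6 were higher without array 1. B and T cell genes (3 of 6 lower, 40.9 to 42.8 and 40.9 to 42.5) had the opposite order, 0.24, -0.11 and -0.11. Heat shock genes (4 of 4 higher, 41.0 to 41.7 and 42.2 to 46.0) were at 0.74 and 0.75 on arrays 1 and 3 and at 0.18 on array 2. The part of these shifts in the values of the synthetases and response genes was not tested. In sorted bulk RNA, fewer cells of a type and less RNA per cell cannot be told apart.

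Leaving out array 2 labelled Lxn-/- gave the most features past an adjusted p of 0.05 in limma, 145 or 0.619% of those tested, and none of the 34 members was among them. Eef1e1 came nearest there (change 0.45, adjusted p 0.205), followed by Atf4 (0.33, adjusted p 0.339) and Hars (0.31, adjusted p 0.360). In that fit the label Lxn-/- and the Y-linked signal cannot be told apart, for these members as for the 145 features.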

How the data were processed

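The authors deposited log2 expression values of 35557 features on 6 arrays, normalized by RMA per the series text, which also names limma. Partek 6.0 appears in the submitters' processing notes. That values are log2 was read from their range, 2.65 to 14.78. The sources used here do not give background settings, a genome build or scan batches. RMA removes differences in total RNA between samples.

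The platform's annotation supplied gene names, and 21698 of 21789 single-gene features matched GRCm38.p6 symbols. The 23410 features with a symbol were fitted in limma 3.58.1 (R 4.3.3; no trend, two-sided, Benjamini-Hochberg), a fit tested on simulated data. A gene with several features is given by the brightest. The text accounts for all members. It gives every array for members with an unadjusted p under 0.05 and for a set of regulators, enzymes and scaffolds, and for others only where arrays stand apart. Each wider list names up to 4 genes of smallest p. Members and lists were chosen with earlier results of these data known. Each array is a separate pool, so p-values measure the spread between pools. Replicate numbers did not pair the arrays (correlations of deviations 0.076, -0.008 and -0.006). At most 18 values were identical between any 2 arrays. Alternatives covered normalization, filters, the fit and left-out arrays.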

Additional observations from a re-analysis of the deposited data

How the results depend on the processing

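No member passed an adjusted p of 0.05 in limma in the fit reported or in the 14 alternatives. The synthetase median stayed positive in all of them (0.09 to 0.24). The median of the response genes was 0.16, ranged from -0.02 to 0.26 with 1 array left out (-0.02 without array 1 labelled Lxn-/-), and was -0.09 without both arrays 1 and 3, where 4 of 13 were higher. The counts of genes with a higher mean were added after seeing the data. Features past an adjusted p of 0.05 numbered 0, 1 with a replicate block, 3 without arrays 1 and 3, and 0 to 145 with 1 array left out (145 without array 2 labelled Lxn-/-). Features with an unadjusted p under 0.05 numbered 3346, 1812 after quantile normalization, 1356 when only features above the median level were tested, and 1628 (without array 3 labelled Lxn-/-) to 5541 (without array 1) with 1 array left out. Members at that limit numbered 5, 10 after median centring, 0 after quantile normalization, 1 without arrays 1 and 3, and 0 (without wild-type array 2) to 8 (without array 2 labelled Lxn-/-) with 1 array left out. Members that changed sign did so as follows. After quantile normalization Qars was at -0.03, Cars at -0.02, Ddit3 at -0.00 and Slc7a11 at 0.05. After median centring Vars was at 0.02 and Psph at 0.03. Without arrays 1 and 3, Cars was at -0.06, Vars at 0.01, Atf4 at -0.14, Ddit3 at -0.29, Asns at -0.09, Mthfd2 at -0.12 and Slc3a2 at -0.07. With 1 array left out, Cars ranged from -0.00 to 0.11, Vars from -0.06 to 0.01, Aimp2 from -0.01 to 0.29, Ddit3 from -0.02 to 0.25, Asns from -0.09 to 0.18, Psph from -0.14 to 0.04 and Mthfd2 from -0.08 to 0.33. The cause of these shifts was not tested. Trib3 and Slc7a11 lie below the median level and have no value when only brighter features are tested. The replicate numbers share only a number, and the block left members past an unadjusted p of 0.05 at 5.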
